A study of Homo sapiens with 2 samples.

Results

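The 406 promoter peaks of pseudogenes and small RNA genes were described from a list of 10041 regions called as peaks with an antibody against crotonylated lysine in T98G cells. They were chosen by annotation alone: the authors had placed the peak within 3 kb of an annotated transcription start, and the gene assigned to it was neither protein-coding nor a long noncoding RNA (lncRNA). They made up 18.9% of the 2152 promoter peaks (exact 95% interval 17.2 to 20.6) and 4.04% of all peaks (3.67 to 4.45), beside 1290 promoter peaks of protein-coding genes and 456 of lncRNA genes. The 406 peaks belonged to 401 genes of 19 gene types on 24 chromosomes.

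T98G cells, a long-established line derived from a human glioblastoma, received crotonate, a precursor of crotonyl-CoA, for 48 h, at 10 µM according to the design text, and gave 1 pan-Kcr chromatin immunoprecipitation (ChIP) library and 1 input library of the same treatment. With 1 library of each kind there were no replicates, so no p-value between groups was computed and every interval covers counting error only. The untreated control cells are not analysed here, and neither the program that called the peaks, nor its cutoff, nor the assembly is named in the sources used here.

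Lysine crotonylation is a histone mark found mostly at active promoters and enhancers, where it is written by acetyltransferases such as p300 and depends on the supply of crotonyl-CoA. Processed pseudogenes are retrocopies of messenger RNAs that usually landed in the genome without a promoter of their own, whereas unprocessed pseudogenes arose by duplication and may have kept one. Many small RNA genes, such as those of U6, 7SL, 7SK, Y and ribosomal 5S RNA, are transcribed by RNA polymerase III from short promoters, and the human genome carries many inactive copies of each. Promoter is used here only for the 3 kb position class, not for evidence of promoter activity.

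Among the members, microRNA (miRNA) genes are the ones for which the peak can be set directly beside a mature product. Of 24 miRNA members, 22 were found in RefSeq on GRCh38.p14 and all 22 had the same span there as in the deposited list, and 21 had at least 1 sequence. Only 3 peaks overlapped the hairpin of a miRNA gene. The peak of MIR3065 (chr17:81125738-81126232, 3 ChIP fragments, fold enrichment 3.39) lay in AATK, a kinase gene expressed in neurons, and held all 79 bases of the MIR3065 hairpin on the plus strand and all 67 bases of the MIR338 hairpin on the minus strand. The peak of MIR2909 (chr17:37033527-37033805, 3 fragments, fold 3.64) lay in AATF, which encodes a nucleolar transcription regulator, and held 61 of the 69 hairpin bases. The peak of MIR4275 (chr4:28819473-28819731, 2 fragments, fold 2.73) lay outside protein-coding genes and held all 87 bases. These hairpins are shown because they are the only miRNA sequences inside the peaks; they are RefSeq sequences of GRCh38.p14, with the mature miRNAs in capitals, MIR338 being on the minus strand and the others on the plus strand.
MIR3065 hairpin: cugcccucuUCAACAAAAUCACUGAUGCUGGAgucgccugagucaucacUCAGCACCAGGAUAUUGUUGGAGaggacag
MIR338 hairpin: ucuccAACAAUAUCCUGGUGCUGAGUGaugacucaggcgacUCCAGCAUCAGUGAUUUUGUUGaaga
MIR2909 hairpin: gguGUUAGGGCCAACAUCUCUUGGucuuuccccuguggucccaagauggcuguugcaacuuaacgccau
MIR4275 hairpin: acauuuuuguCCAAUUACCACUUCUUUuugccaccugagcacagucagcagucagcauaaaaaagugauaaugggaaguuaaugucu

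The mature miRNAs of the same 3 peaks, and those of 5 other genes whose peak had 3 fragments at its summit, are given with the seed (bases 2 to 8) in capitals, since the seed decides most target pairing. MIR606 lies on chromosome 10, MIR4636 on 5, MIR520G on 19, and MIR1825 and MIR646 on 20.
hsa-miR-3065-5p: uCAACAAAaucacugaugcugga
hsa-miR-3065-3p: uCAGCACCaggauauuguuggag
hsa-miR-338-3p: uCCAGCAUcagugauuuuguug
hsa-miR-338-5p: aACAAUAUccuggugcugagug
hsa-miR-2909: gUUAGGGCcaacaucucuugg
hsa-miR-4275: cCAAUUACcacuucuuu
hsa-miR-606: aAACUACUgaaaaucaaagau
hsa-miR-4636: aACUCGUGuucaaagccuuuag
hsa-miR-520g-5p: uCUAGAGGaagcacuuucuguuu
hsa-miR-520g-3p: aCAAAGUGcuucccuuuagagugu
hsa-miR-1825: uCCAGUGCccuccucucc
hsa-miR-646: aAGCAGCUgccucugaggc
No seed was shared between any of the 30 mature miRNAs of the members. In the RefSeq table of 2370 mature names, the seeds of 22 of the 30 occurred in no other name. The exceptions included hsa-miR-520g-3p, whose seed occurs in 1 other name, and miR-422a, whose seed occurs in 6.

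The remaining miRNA peaks lay beside, not on, their hairpin. Among those with 3 fragments, MIR1825 (96 bp upstream, in POFUT1, which encodes a protein O-fucosyltransferase), MIR646 (156 bp upstream) and MIR4636 (222 bp upstream, in SEMA5A, a semaphorin gene) were the nearest to the start. MIR520G, of the primate-specific chromosome 19 miRNA cluster, had its peak 923 bp downstream. MIR606, in LRMDA, had its peak 2823 bp downstream. The other 16 miRNA peaks had 2 fragments and fold enrichments from 2.54 to 2.73. They included MIR145, known for its role in smooth muscle (1749 bp downstream, fold 2.69), MIR379 of the imprinted cluster on chromosome 14 (1300 bp upstream, fold 2.73), MIR585 in the axon guidance gene SLIT3 (2290 bp upstream, fold 2.69), MIR3163 in PC (65 bp upstream, fold 2.54) and MIR1290 in ALDH4A1 (432 bp downstream, fold 2.54). MIR1262, MIR6721, MIR7161, MIR8073, MIR7843, MIR422A, MIR3187, MIR5692A1 and the unnamed AL031428.2 and AC104450.1 made up the rest with MIR4275.

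Fold enrichment over the caller's background ran from 2.53 to 4.55 in the 406 peaks, with a median of 2.73 and quartiles of 2.63 and 2.94, and peak length from 258 to 734 bp (median 318 bp). The ChIP fragments stacked at each summit were recovered from the fold enrichment and the p of the peak. The summit held 2 fragments in 301 member peaks, 3 in 101 and 4 in 4, and no member reached 5. The smallest q of a member was 0.318, at MTDHP2, and 312 members (76.8%) had a q of 1. No peak of the whole list had a q under 0.05. A height of 2 or 3 fragments does not fix the order of single peaks.

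A summit of 3 or more fragments was found in 25.9% of the member peaks (105 of 406, 21.7 to 30.4), against 25.8% of all peaks of the list, so that the share was at the background of the list. It was 28.4% for protein-coding promoter peaks, a difference of -2.51 percentage points (-7.25 to 2.56), and 26.1% for lncRNA promoter peaks, a difference of -0.234 (-6.06 to 5.65). Summits of 4 or more fragments were rarer in the members, with 0.985% (4 of 406), than in protein-coding promoter peaks with 3.41% (44 of 1290), the difference being -2.43 points (-3.71 to -0.679). The background over all peaks was 2.23%. Against lncRNA promoter peaks, with 1.97%, the difference of -0.988 points (-2.82 to 0.795) included 0. The threshold of 4 fragments was chosen after the values were seen. In all, 11 such differences were computed, and the intervals of 5 left out 0 without adjustment for their number.

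The caller's background of the members also differed from that of protein-coding promoter peaks. The lowest background in the list, 0.0999 fragments per base, applied to 38.9% of member peaks and to 32.2% of protein-coding promoter peaks, a difference of 6.75 points (1.45 to 12.2), and to 33.8% of lncRNA promoter peaks, a difference of 5.14 (-1.28 to 11.5). Over all peaks of the list the share was 36.4%, inside the member interval of 34.1 to 43.8. The share at the lowest background was also chosen after the values were seen. The same 2 fragments give a higher fold enrichment at this background, and 124 members had exactly that combination, at a fold of 2.73. The median fold enrichment was 2.73 for members, for protein-coding and lncRNA promoter peaks and for all peaks alike. The upper quartile was 3.35 for protein-coding promoter peaks and 2.94 for members, lncRNA promoter peaks and all peaks. The part of the background in these values was not tested.

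The 4 members with 4 fragments were pseudogenes, as were 265 of the 406 members by gene type. MTDHP2, a retrocopy of the metadherin gene, had the highest fold enrichment, 4.55 with 4 fragments (chr19:21942671-21942970), 1851 bp downstream of its start and inside the zinc finger gene ZNF208. PPIAP3, a copy of the cyclophilin A gene PPIA, had 4.27 (chr20:37531706-37532028), 1667 bp downstream. OR7E7P, a duplicated olfactory receptor pseudogene on chromosome 7, had 4.24 (chr7:97946923-97947311), 687 bp downstream. DUTP3, a transcribed copy of the deoxyuridine triphosphatase gene, had 4.06 (chr7:147144254-147144558), 1784 bp upstream and inside CNTNAP2, a neuronal adhesion gene. All 4 peaks lay more than 500 bp from the annotated start, as did most members. Of the 406 member peaks, 34 overlapped the start, 39 lay up to 500 bp upstream and 35 up to 500 bp downstream. Below the 4 tallest peaks, 33 shared a fold of 3.64, which is 3 fragments at the lowest background. The first 6 of these by position were SNORA59A in VPS13D, the ribosomal protein L36a pseudogene AC093151.1, ZNF101P2, RN7SL837P, OR2L9P and OR5H7P.

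**Figure D1:**
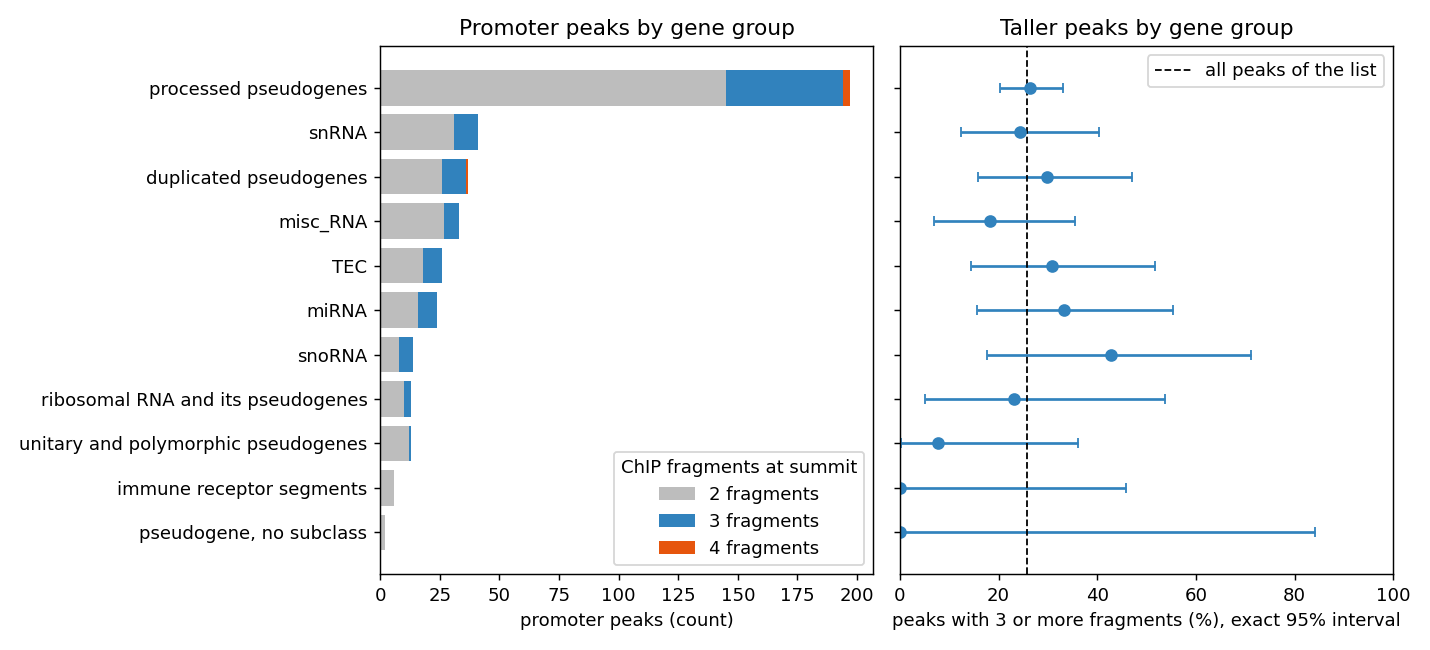
The left panel plots the number of promoter peaks in each gene group, split by the ChIP fragments at the summit; the right panel gives the share of peaks with 3 or more fragments in percent with its exact 95% interval, and the dashed line is the share over all peaks of the list (25.8%). Processed pseudogenes hold 197 of the 406 peaks, and the interval of every group includes the dashed line.

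Processed pseudogenes were the largest group, with 197 peaks (48.5% of members, 43.6 to 53.5), of which 185 were typed as processed and 12 as transcribed processed pseudogenes. A summit of 3 or more fragments was found in 52 of the 197 (26.4%, 20.4 to 33.1). By description, 45 member peaks belonged to pseudogenes of ribosomal protein genes, which make the most numerous retrocopies in the human genome, and 12 of the 45 had 3 or more fragments. ACTG1P22, a copy of the gamma actin gene (3.63), and RPSAP36, a copy of the ribosomal protein SA gene inside GAB1 (3.60), followed DUTP3 among the transcribed copies. RPL29P2 in the dynein gene DNAH2 had 2 promoter peaks, 1105 bp and 293 bp upstream, each of 2 fragments at a fold of 2.73. BIRC8, a retrocopy of XIAP, which encodes an inhibitor of apoptosis, had 2 (fold 2.72 and 2.54), and so did AC063952.3 (2.53 and 2.94).

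Duplicated pseudogenes gave 37 peaks, 11 of them with 3 or more fragments (29.7%, 15.9 to 47.0). Olfactory receptor pseudogenes, relics of the largest human gene family, supplied 9 member peaks of all types, 3 with 3 or more fragments. RAET1K, related to the NKG2D ligand genes, had its peak 45 bp from the start at a fold of 3.57. A2MP1, a pseudogene of alpha-2-macroglobulin, had 2 peaks at a fold of 2.73, 1235 bp upstream and 737 bp downstream. Unitary and polymorphic pseudogenes, which lost function without leaving an active copy or vary in function between people, gave 13 peaks, 1 of them with 3 or more fragments (7.69%, 0.195 to 36.0). That one was Z83820.1 on chromosome X (3.39). The vomeronasal receptor pseudogenes VN1R20P (2.68) and VN2R1P (2.65), the olfactory OR5S1P (2.53), LRRC77P (2.73), the actin pseudogene ACTE1P (2.73), AC105339.1 (2.73) and CYP2D7, beside the drug-metabolising CYP2D6 (2.68, overlapping the start), had 2 fragments. AL353662.3 (2.73) and AC068724.3 (2.53) were typed only as pseudogene.

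Immune receptor segments, which are joined by recombination in lymphocytes, gave 6 peaks and all had 2 fragments. They were IGHVIII-67-2 (2.54), IGLVI-63 (2.54), IGKV3OR22-2 (2.53), IGLV1-50 (2.70), TRAV15 (2.73) and TRBV20OR9-2 (2.73). The exact upper limit of their share with 3 or more fragments was 45.9%, a range that includes the 25.8% of the list. TEC genes, transcripts that the annotation lists as still to be tested, gave 26 peaks, 8 with 3 or more fragments (30.8%, 14.3 to 51.8). Within 1 kb of the start lay 6 of the 26 (23.1%, 8.97 to 43.6), an interval that includes the 38.4% of all members. AC073578.4, AC020658.7 (both 3.64) and AL607033.1 (3.57) led the TEC peaks by fold enrichment.

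Small nuclear RNA (snRNA) genes gave 41 peaks, and 10 had 3 or more fragments (24.4%, 12.4 to 40.3). Of these 41 peaks, 37 matched a RefSeq entry and all 37 entries were pseudogenes. None of the 154 RefSeq snRNA genes that are not pseudogenes had a member peak, which allows a share of up to 1.95% (exact upper limit 2.37%). That range includes the 1.16% found over all RefSeq pseudogenes and small RNA genes. Copies of U6 RNA, the catalytic core RNA of the spliceosome, supplied 26 peaks, 6 with 3 or more fragments. RNU6-503P (3.60) and a gene named only U6 on chromosome 20 (3.64) were the tallest. U7 copies, named for the RNA that trims histone messengers, gave 7 peaks, among them both peaks of RNU7-53P (2.54 and 2.63). Of 3 peaks at copies of U1, which recognises the 5′ splice site, 2 had 3 fragments, and that of RNU1-123P in TPPP3 (chr16:67390719-67391295, fold 3.46) overlapped the start. No U2 copy had a member peak, of 71 in RefSeq (exact upper limit 5.06%), which also includes the 1.16%.

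The misc_RNA type gave 33 peaks, 6 with 3 or more fragments (18.2%, 6.98 to 35.5). Copies of 7SL, the RNA of the signal recognition particle, gave 11 peaks and 4 were taller, with RN7SL837P at 3.64 and RN7SL481P in CASP2 at 3.48. Copies of 7SK, which holds the elongation factor P-TEFb inactive, gave 8 peaks and 2 were taller, led by RN7SKP209 in CGA (3.64). The 8 peaks at Y RNA genes, partners of the Ro protein, all had 2 fragments, with fold enrichments from 2.54 to 2.73. Of all 406 members, 301 had 2 fragments. The type rRNA_pseudogene gave 12 peaks, 11 at copies of 5S RNA and 1 at the 5.8S copy RNA5-8SP4, named after its value was seen. Of these, 3 had 3 or more fragments, RNA5SP478 (3.64), RNA5SP425 in PHKB (3.57) and RNA5SP187 (3.39). RNA5SP531, a further copy of 5S RNA typed as rRNA in the list, had 2 fragments (2.72).

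Small nucleolar RNA (snoRNA) genes, guides of ribosomal RNA modification, gave 14 peaks, and 6 had 3 or more fragments (42.9%, 17.7 to 71.1). This was the highest point value of any group, with an interval that includes the 25.8% of the list. SNORA59A, SNORD3H and AL121933.1 had a fold of 3.64. Of 2 members from the brain-expressed SNORD115 cluster of the Prader-Willi region, both overlapping the start, SNORD115-14 had 3 fragments (3.64) and SNORD115-3 had 2 (2.54); these names were picked after their values were seen. Peaks at miRNA genes had 3 or more fragments in 8 of 24 (33.3%, 15.6 to 55.3).

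The members can be set against the number of annotated genes. By symbol and chromosome, 251 of the 406 peaks (247 genes) were found in RefSeq on GRCh38.p14, and 249 of the 251 lay within 5 kb of the RefSeq span. Of 21320 RefSeq pseudogenes and small RNA genes, 247 had a member peak (1.16%, 1.02 to 1.31). The share was 1.27% of 16845 pseudogenes and 1.15% of 1913 miRNA genes, and 6 of 1199 snoRNA genes had one. The other 155 member peaks had no RefSeq match, among them 84 at processed pseudogenes and all 26 at TEC genes, and do not enter these shares. How far the shares would move with every gene matched was not tested.

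**Figure D2:**
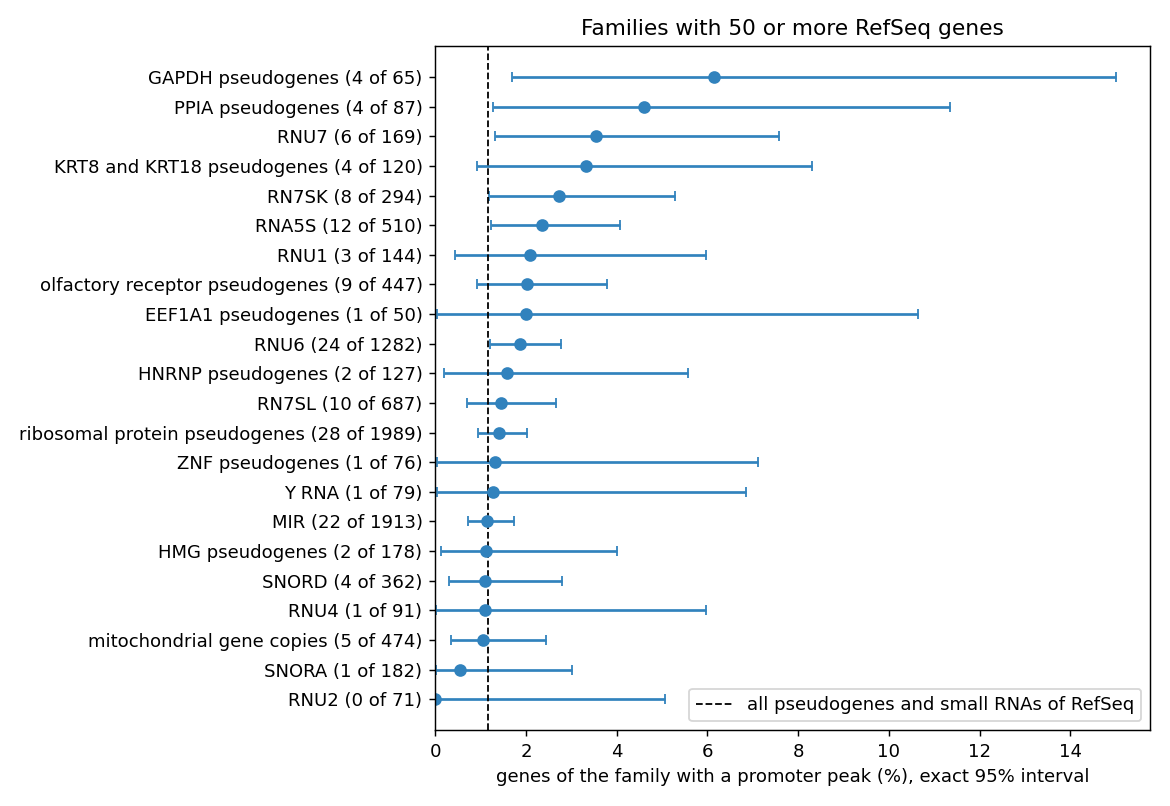
Points give the percent of RefSeq genes with a member promoter peak in each family of 50 or more RefSeq genes and bars the exact 95% interval, with the counts beside each name; the dashed line is the share over all RefSeq pseudogenes and small RNA genes (1.16%). Of the families plotted, GAPDH pseudogenes (4 of 65) have the highest share and the widest interval, and RNU2 copies have no peak. Member genes were matched to RefSeq less completely over all genes than in most plotted families, so positions relative to the line are not directly comparable.

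Copies of GAPDH, the glycolytic enzyme, had the highest share among families of 50 or more genes, 4 of 65 (6.15%, 1.70 to 15.0). Next came copies of PPIA with 4 of 87 (4.60%, 1.27 to 11.4) and U7 copies with 6 of 169 (3.55%, 1.31 to 7.57). The families were searched by gene symbol. Of the 406 member peaks, 301 had 2 fragments. So did all 4 peaks at GAPDH copies found by symbol and all 4 at copies of the keratin genes KRT8 and KRT18. AL136968.1, a GAPDH copy by its description only, named after its value was seen, also had 2. The share was 2.35% for 5S copies (12 of 510, 1.22 to 4.07), 1.87% for U6 copies (24 of 1282, 1.20 to 2.77) and 1.41% for ribosomal protein pseudogenes (28 of 1989, 0.937 to 2.03). The intervals of GAPDH, PPIA, U6 and ribosomal protein copies overlapped, so that their order is not fixed. In total 168 member peaks fell into 24 of the 25 families searched by name and 238 into none. Matching to RefSeq was unequal, with 24 of 26 U6 genes, 1 of 8 Y RNA genes and 247 of all 401 member genes matched. A family share is therefore not directly comparable with the 1.16% over all RefSeq pseudogenes and small RNA genes. Copies in a family share sequence, and the sources used here do not say how reads that fit several copies were placed. Whether that moved peaks between copies was not tested.

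Members lay near the annotated start less often than the other promoter peaks. Within 1 kb lay 38.4% of member peaks (156 of 406, 33.7 to 43.3), against 51.9% for protein-coding genes, a difference of -13.5 points (-18.9 to -7.98), and 45.4% for lncRNA genes, a difference of -6.97 (-13.5 to -0.369). A further 145 lay between 1 and 2 kb and 105 between 2 and 3 kb. The start itself was overlapped by 34 peaks (8.37%), while 173 lay upstream and 199 downstream. In bins of 500 bp, each bin held between 3.94% and 10.1% of the member peaks, the fewest in the second bin upstream. For protein-coding peaks the range was from 13.8% in the first bin downstream to 4.03% in the bin farthest upstream. For lncRNA peaks it was from 11.2% to 4.82%. The authors' distance is to any transcript of a gene. Protein-coding genes with several starts therefore have more places from which a peak counts as near. Only 33.8% of their promoter peaks lay within 3 kb of a RefSeq protein-coding start, and the part of this in the difference was not tested.

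**Figure D3:**
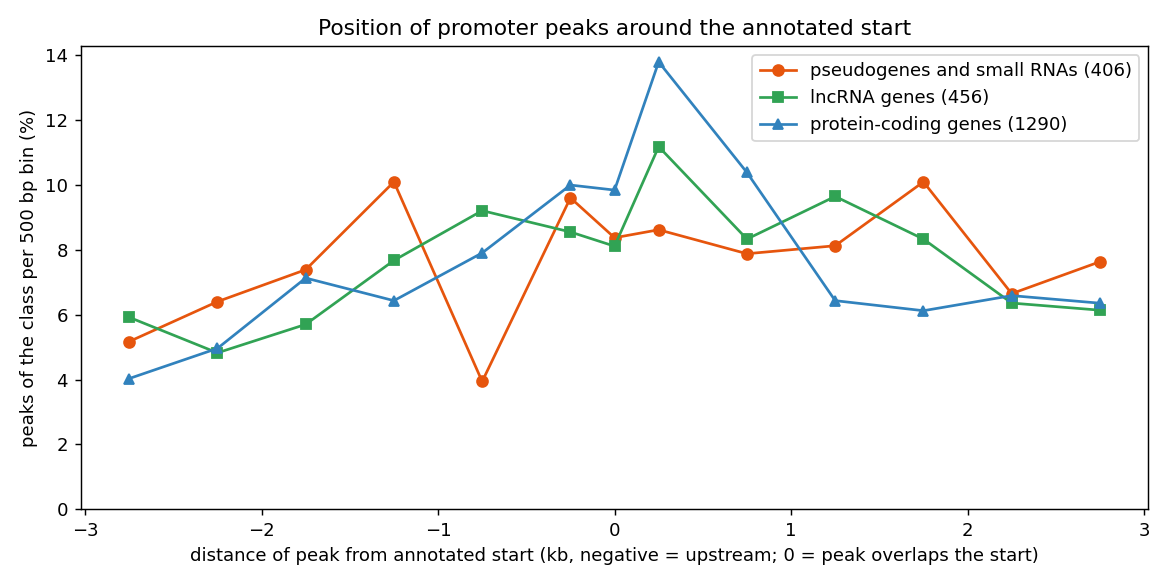
The lines plot, for each class of gene, the percent of its promoter peaks in each 500 bp bin of distance from the annotated start in kb, with peaks that overlap the start at 0. Protein-coding peaks are highest in the first bin downstream (178 of 1290, 13.8%), and member peaks lie between 16 and 41 of 406 per bin (3.94% to 10.1%). The point at 0 counts only peaks that overlap the start. It is not a 500 bp bin, so its height cannot be compared with that of the bins.

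Height was set against distance within the members. Of the 156 members within 1 kb, 24.4% had 3 or more fragments (17.9 to 31.9), and of the 250 farther out 26.8% (21.4 to 32.7), with overlapping intervals. Of the 406 peaks, 88 overlapped the assigned transcript and 12 covered it whole.

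Many members sat inside another gene. A RefSeq protein-coding gene held 161 of the 406 peaks (39.7%, 34.9 to 44.6), against 32.5% of lncRNA promoter peaks, a difference of 7.20 points (0.785 to 13.6). The same position was common among annotated genes of these kinds, with or without a peak. Of the RefSeq pseudogenes with a member peak, 37.6% overlapped a protein-coding gene (82 of 218, 31.2 to 44.4), and of all RefSeq pseudogenes 32.4% (31.7 to 33.1). For miRNA genes the shares were 72.7% (16 of 22, 49.8 to 89.3) and 63.5% (61.3 to 65.7), and for snoRNA genes 3 of 6 and 51.7%. Duplicated pseudogenes lay inside protein-coding genes in 5 of 37 peaks.

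Where the strand of the host gene was known, 69 of 139 members (49.6%, 41.1 to 58.2) ran against it. Processed pseudogenes ran against the host at 42 peaks and with it at 20; the same count over all annotated processed pseudogenes was not made. Of the miRNA members with a host, 15 ran with it and 3 against, while 84.1% of all 879 RefSeq hairpins with such a host ran with it (81.5 to 86.4). Member peaks inside protein-coding genes had 3 or more fragments in 29.2% (22.3 to 36.9) and those outside in 23.7% (18.5 to 29.5), with overlapping intervals.

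By the RefSeq starts at hand, few members lay next to the start of a protein-coding gene. Of 390 members on the chromosomes with such starts, 8 (2.05%) lay within 3 kb of one and 1 within 1 kb. Within 3 kb lay 9.77% of lncRNA promoter peaks (42 of 430) and only 33.8% of protein-coding ones, so these starts do not cover all that the authors used. The low share of the members is in part fixed by the annotation, which gives a peak to its nearest start. The 8 were AL021155.3 near NPPA, AL445928.1 near DBT, B3GAT3P1 near TRIM59, RNU6-784P near RUFY3, RNU7-161P near C7, AC068724.3 near UBR1, AC105339.1 near AP3B2 and ABCA17P near ABCA3. Of these, B3GAT3P1 alone had 3 fragments; most of the names were picked after their values were seen. Of the member peaks, 6 had another peak of the list within 1 kb and 33 within 10 kb. The same counts were not made for the other peaks, so these do not describe the members in particular.

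By chromosome, the largest numbers of member peaks were on chromosomes 1 and 3, with 38 each. Relative to annotated genes, chromosome 20 had the highest share, with a member peak at 16 of 437 RefSeq pseudogenes and small RNA genes (3.66%, 2.11 to 5.88), followed by chromosome 3 with 24 of 1167 (2.06%, 1.32 to 3.04). Chromosome X had 5 of 1110 (0.450%, 0.146 to 1.05). The share over all RefSeq pseudogenes and small RNA genes was 1.16%. Matching to RefSeq was unequal between chromosomes, with 16 genes matched for 22 member peaks on chromosome 20. It was 5 genes for 13 peaks on chromosome 15 and 4 for 4 on chromosome 13. The part of the matching in this ranking was not tested. Chromosome 20 was also the highest for protein-coding genes, at 10.4%. Chromosome 20 held 22 member peaks, 5.42% of members, against 4.81% of protein-coding promoter peaks (difference 0.613 points, -1.62 to 3.46) and 5.48% of lncRNA promoter peaks (difference -0.0637, -3.14 to 3.11). PPIAP3, RNA5SP478, MIR1825, MIR646 and the U6 gene named above were among them. Of the 22, 8 had 3 or more fragments, beside 25.8% over all peaks of the list, and no interval was computed for this count. Of all peaks of the list, 4.74% lay on chromosome 20. The mean background of the member peaks there was 0.166 fragments per base, above the 0.128 of chromosome 1 and the 0.123 of chromosome X and below the 0.186 of chromosome 18, where 4 member peaks lay. DNA copy number in these cells was not measured here, and the part of the background in these shares was not tested.

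**Figure D4:**
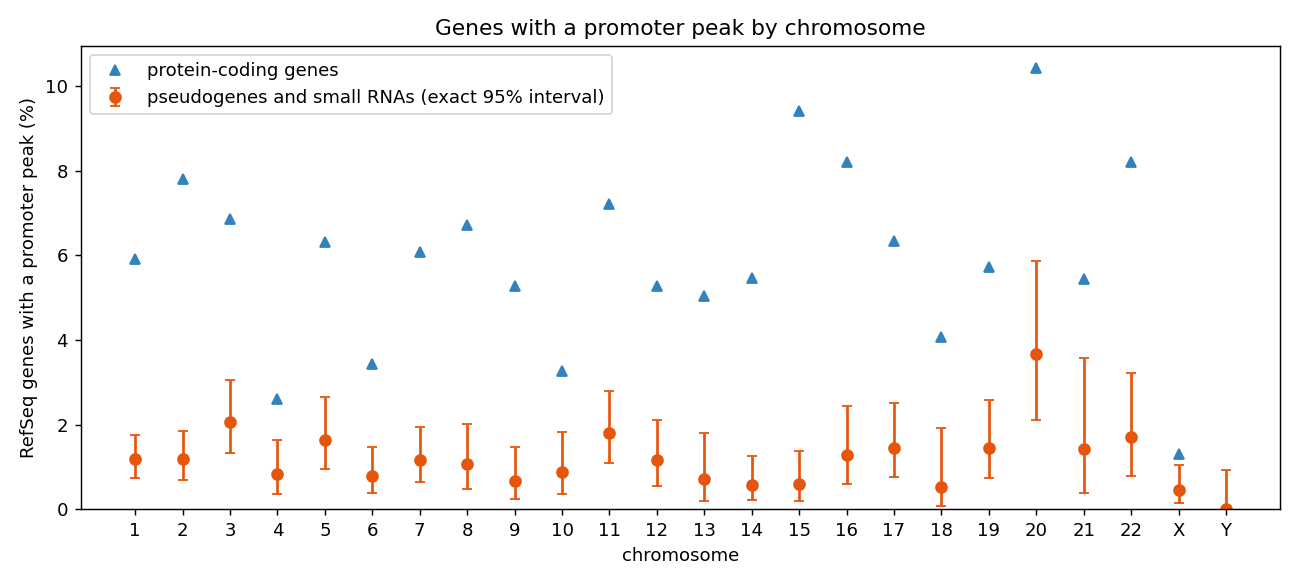
Circles give the percent of RefSeq pseudogenes and small RNA genes with a member promoter peak on each chromosome with the exact 95% interval, and triangles the percent of protein-coding genes with a promoter peak. Chromosome 20 is highest for both (3.66% and 10.4%), and chromosome X is at 0.450% for the circles. Member genes were matched to RefSeq unequally between chromosomes, so the order of the circles is not fixed.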

How the data were processed

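Pan-Kcr ChIP and input DNA of crotonate-treated T98G cells (1 library each) were represented by the authors' annotated peak list. Its deposited values per peak are a fold enrichment (a ratio over the caller's background) and −log10 p-values and q-values, with position, summit and nearest transcript. The sources used here name no aligner, caller, threshold or build. Sequencing depth was not counted from reads.

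Members and lists were chosen with earlier results of these data known. Fragments (n) and background (b) at the summit were recovered from fold = (n + 1)/(b + 1) and a Poisson p, with an error of at most 6.52e-05 on the −log10 scale, and the recovery was tested on simulated data. Shares have exact (Clopper-Pearson) intervals and differences Newcombe intervals, both at 95%. Named were the 10 highest peaks, the 3 highest of each gene type with 5 or more peaks, every member of smaller types, genes with 2 or more member peaks and all miRNA genes; other names are marked, and 1 miRNA gene that the rule names is not reported here. A count of 0 was taken to allow 3 counts. RefSeq (GRCh38.p14) gave names, spans and sequences. Alternatives were a higher fold, 3 or more fragments, a 1 kb window, summit positions, merging of peaks, and leaving out chromosome Y or the TEC and immune receptor types. Software was scipy 1.17.1, pandas 2.3.3, numpy 2.4.6 and matplotlib 3.10.9 under Python 3.11.15.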

Additional observations from a re-analysis of the deposited data

How the results depend on the processing

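The number of member peaks fell from 406 to 229 when fold enrichment had to reach the median of the list, to 105 with 3 or more fragments and to 156 with a promoter window of 1 kb, each by construction. Member peaks in named families then numbered 48 (3 or more fragments) and 74 (1 kb window) in place of 168, and 8 and 5 of the 24 families were left with none. With 3 or more fragments the median fold enrichment was 3.51 in place of 2.73. With the higher fold, which removes mostly peaks of 2 fragments, 45.9% had 3 or more fragments. In the 1 kb window the members were 15.1% of promoter peaks in place of 18.9%. Of the 390 members with RefSeq starts at hand, 0.256% lay within 1 kb of a protein-coding start and 2.05% within 3 kb. Requiring the summit in the 3 kb window, merging peaks within 1 kb, or leaving out chromosome Y or the TEC and immune receptor types kept the number of members within 1.5 times, and kept inside their main intervals the median fold enrichment and the shares among promoter peaks, with 3 or more fragments, within 1 kb and on chromosome 20. The other results were not run under these 4 settings, except that the shares inside a protein-coding gene and near a coding start were the same when taken from the summit. No paired analysis was possible because the series has a single ChIP sample. For the same reason no replicate could be left out, and a height of 2 to 4 fragments limits every comparison of single peaks.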

Other observations

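Outside the promoter class, 2301 further peaks had a pseudogene or small RNA gene as their nearest gene (1908 genes), and 24.5% of them had 3 or more fragments. Of these, 1322 were distal intergenic and 890 intronic. The highest fold enrichment was 6.57, with 8 fragments, 79460 bp upstream of the unprocessed pseudogene AC242852.1 on chromosome 1. Its background was 0.370 fragments per base, against a median of 0.120 over all peaks. A second peak near the same gene held 10 fragments over a background of 1.11 fragments per base, the highest of the list, for a fold of 5.21. AC112206.4, a processed pseudogene on chromosome 5, had 6 fragments and a fold of 6.36. Of the 401 genes with a member peak, 38 also had a peak outside the promoter class, and RNU7-53P had the most peaks, 4 in all and 2 of them in the promoter class. These names were picked after their values were seen.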
